A study of Mus musculus with 6 samples.

Results

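The cells described here are 166 of 77105 CD45+ cells of the mouse midbrain, selected because they carried RNA of the monocyte genes Ly6c2, Ccr2, Chil3 and Vcan. A cell was taken when these 4 genes summed to 3 or more UMIs (unique molecular identifiers, 1 per captured RNA molecule), when the MHC Class II genes H2-Aa, H2-Ab1, H2-Eb1 and Cd74 made up under 2% of its UMIs, and when it held at most 1 UMI over the border macrophage genes Mrc1, Pf4, Cd163 and Lyve1 and at most 1 over the T and NK cell genes Cd3d, Cd3e, Ncr1 and Klrb1c. They are called monocyte-gene cells below, because the wider expression of many of them was not that of a monocyte. All mice were male Line 61 animals, 12 to 15 weeks old at injection, in which the Thy1 promoter drives human α-Syn from a transgene on the X chromosome. They received PBS, α-Syn monomer or human α-Syn preformed fibrils (PFF) in the striatum of both sides. Both PFF groups were gavaged daily from week 2, one with vehicle (PFF + VH) and one with 25 mg/kg of AZD1480, an inhibitor of JAK1 and JAK2 (PFF + AZD1480). Ventral midbrains were collected 6 weeks after injection, 3 to 5 of them were pooled per sample, and CD45+ cells were sorted. Each of the 4 conditions is 1 mRNA library, so that a library and its condition cannot be told apart.

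Classical monocytes are short-lived cells of the bone marrow and blood. The chemokine receptor Ccr2 lets them leave the marrow and enter inflamed tissue, Ly6c2 encodes the surface protein by which they are usually sorted in mice, Chil3 a secreted chitinase-like protein, Vcan a proteoglycan, and Plac8 a small protein of myeloid and plasmacytoid cells. The healthy brain holds very few of them, and those that enter it can turn into macrophages that resemble resident ones. Chil3 and Ly6c2 are also transcribed by developing neutrophils, and Ccr2 by several lymphoid cells, so that none of the 4 genes is restricted to monocytes. JAK kinases pass signals of interferons, IL-6 and colony-stimulating factors on to STAT transcription factors in all of these cells.

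The 4 libraries held 99658216 to 116440449 UMIs. PFF + VH spread them over 34436 cells, against 13021 to 15031 in the others, and its median cell had 2306 UMIs, against 6616 to 7028. In the PFF libraries, antibody-linked oligos (hashtags) marked the sample of origin. Hashtags stood in for replicates here because they are as many as the replicates the study gives, which no source used here states outright. A single hashtag was called in 17893 of 34436 cells of PFF + VH and in 10552 of 13021 of PFF + AZD1480. Cells with more than 1 hashtag, 3688 and 1634 in the same order, entered no test, but they do enter the values given per library. The PBS and monomer libraries carried no hashtags and gave no replicates, so that doublets could not be found in them in this way.

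The hashtag oligos are shown because every replicate value below was assigned by one of them. Hashtags 1 to 4 marked both PFF libraries and hashtag 5 only PFF + AZD1480, and any pair of the 5 differs at 8 to 13 of 15 bases.
Hashtag 1: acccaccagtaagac
Hashtag 2: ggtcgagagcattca
Hashtag 3: cttgccgcatgtcat
Hashtag 4: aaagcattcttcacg
Hashtag 5: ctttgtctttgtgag

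In PFF + VH, some cell barcodes were not independent of each other. Of its monocyte-gene cells, 27 pairs of barcodes had gene proportions that agreed within sampling noise, although their total UMIs could differ. The strongest hashtag was shared in 26 of these pairs. The dispersion index, a chi-square per gene compared that is near 1 when both barcodes sample the same RNA, was at least 0.98 and at most 1.2 in these pairs, over 107 to 870 genes, 1.2 being the limit used to call them. It was under 1 in 3 of the 27. In the other libraries no such pair was found, and the lowest index was 1.62 to 1.64. The pairs compared were 351 with PBS, 378 with monomer, 1914 with PFF + VH and 681 with PFF + AZD1480. Pairs with fewer than 100 genes of an expected count of at least 2 could not be compared. Matches among shallow cells can therefore be missed, and values with matching barcodes counted once need not be complete. Merging the matching barcodes left 51 profiles of 72 cells in PFF + VH, and the largest group held 5 barcodes. The same was found outside these cells, since 32 of 200 random cells of PFF + VH with at least 3000 UMIs had a match, against 1 of 200 with PBS and 0 of 200 with monomer and with PFF + AZD1480. The unthinned share of all cells, the shares per hashtag, the counts of called genes and several levels per library are therefore also given with matching barcodes counted once. Only monocyte-gene cells were merged in this way, and the number of all cells that a share is taken of was kept. Between 45 and 151 barcode sequences were shared by any 2 libraries, and 1 monocyte-gene cell had a barcode of that kind.

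Monocyte-gene cells were rare in every library. They numbered 27 with PBS, 29 with monomer, 72 with PFF + VH and 38 with PFF + AZD1480. Their share of all cells was 0.185% with PBS (95% exact binomial interval 0.122 to 0.269%), 0.193% with monomer (0.129 to 0.277%), 0.209% with PFF + VH (0.164 to 0.263%) and 0.292% with PFF + AZD1480 (0.207 to 0.400%). All 4 intervals overlap, and they cover counting error only. With matching barcodes counted once, PFF + VH held 51 profiles, 0.148% (0.110 to 0.195%) of its 34436 cells. That interval lies below the one of PFF + AZD1480 and overlaps the other 2. Because all cells were not merged in the same way, this value is not on the same footing as the others, and no order of the libraries is read from these shares. Because a cell with more UMIs passes a limit of 3 more easily, each cell was also thinned to 1000 UMIs, shallower cells being left out. The share then was 0.144% with PBS, 0.0571% with monomer, 0.149% with PFF + VH and 0.192% with PFF + AZD1480, from 20, 8, 43 and 24 cells. These thinned values were not computed with matching barcodes counted once. They are values of 1 library each and have no replicate check.

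The label of monocytes did not hold for all of these cells. Over the 166 cells, the 15 genes that stood highest above all other cells, among those found in at least 25% of them, were led by genes of neutrophil granules. Ltf (lactoferrin) had a mean of 2989.5 CPM (the UMIs of the gene scaled to a common total) over the 4 libraries against 4.95 in all other cells, Camp (cathelicidin) 9792 against 16.4, and Ngp (neutrophilic granule protein) 10162 against 17.1. Cd177, Lcn2, Wfdc21, Mmp8, Ifitm6, Ly6g, S100a8, S100a9, Retnlg, Hp, Anxa1 and Trem3 followed. This ranking is a description, since the cells were chosen from the same counts.

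The cells were therefore divided by their content into kinds, with limits set after the values had been seen, and no test was run between kinds. Cells with 3 or more UMIs over the neutrophil genes Retnlg, Cxcr2, Mmp9, Mmp8, Camp, Ngp, Ltf and Ly6g were the most numerous with 59 of 166 (35.5%). Of the other cells, those in which Lyz2 (lysozyme) made up at least 0.5% of the UMIs came next with 50 (30.1%). A further 29 were assigned by 3 or more UMIs of the microglial genes P2ry12, Tmem119 and Sall1. The plasmacytoid dendritic cell genes Ccr9, Klk1 and Cox6a2, with 2 or more UMIs, assigned 7. A list of T, NK and innate lymphoid cell genes, with 3 or more, assigned 10, and 11 met none of these limits. A cell took the first kind whose limit it met, in the order neutrophil, plasmacytoid, Lyz2, microglial and lymphoid. The kinds therefore overlap in content. The lymphoid limit was met by 6, 7, 17 and 10 cells of PBS, monomer, PFF + VH and PFF + AZD1480. The median Lyz2 share in neutrophil-gene cells was 1.00% of UMIs. The 59 neutrophil-gene cells were 8 of 27 with PBS, 4 of 29 with monomer, 24 of 72 with PFF + VH and 23 of 38 with PFF + AZD1480. The 50 Lyz2 cells were 9, 10, 25 and 6 cells in the same order. With matching barcodes counted once, 20 of 51 profiles of PFF + VH were neutrophil-gene cells (39.2%) and 11 of 51 Lyz2 cells (21.6%).

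**Figure D1:**
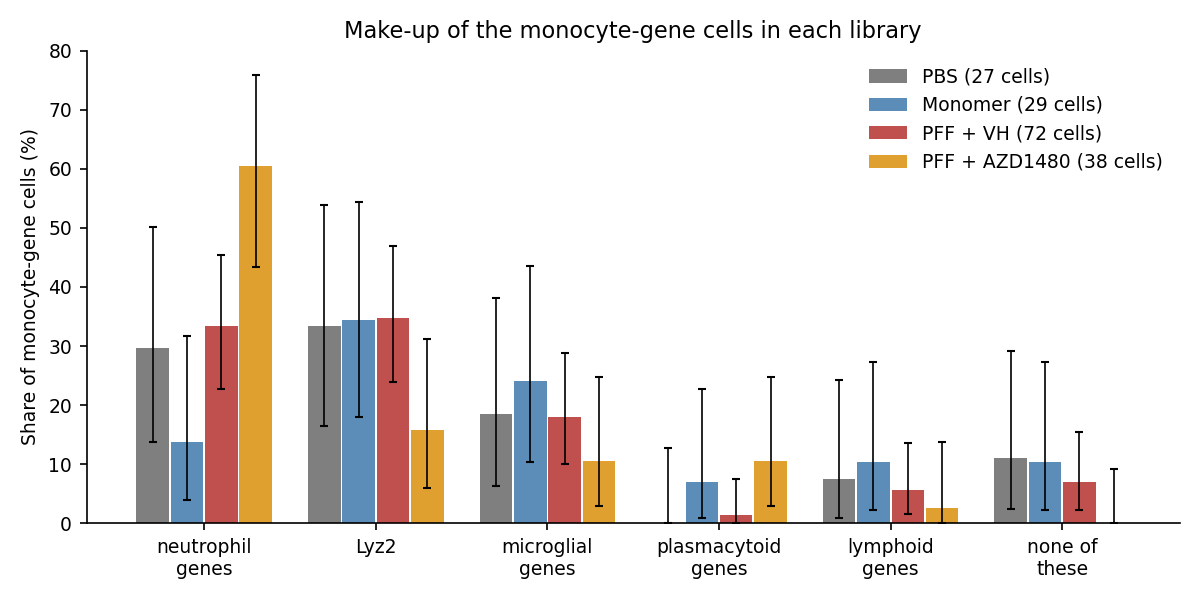
Bars give the share (%) of the monocyte-gene cells of each library that fell into each kind, with exact binomial 95% intervals. Neutrophil-gene cells made up 60.5% of these cells in PFF + AZD1480 and 13.8 to 33.3% in the other libraries, and Lyz2 cells 15.8% there and 33.3 to 34.7% in the others, but 39.2% and 21.6% in PFF + VH with matching barcodes counted once.

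Nearly all neutrophil-gene cells lay far above the limit of 3 UMIs that defined them. The neutrophil genes summed to 6 to 1998 UMIs per cell in them, with a median of 341. Only 2 neutrophil-gene cells, both in PFF + AZD1480, held under 10 of these UMIs, with 6 each. These 2 held 13 and 32 UMIs of Ccr2, 13 and 65 of Fn1 and 0 of Ngp and of Retnlg, and so looked like the Lyz2 cells. With them moved, Lyz2 cells would be 8 of 38 (21.1%) and neutrophil-gene cells 21 of 38 (55.3%) in PFF + AZD1480. The Lyz2 share ranged from 0.511 to 5.72% of UMIs in the Lyz2 cells, with 3 cells under 0.75%, and the highest value in a cell outside both kinds was 0.490%.

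**Figure D2:**
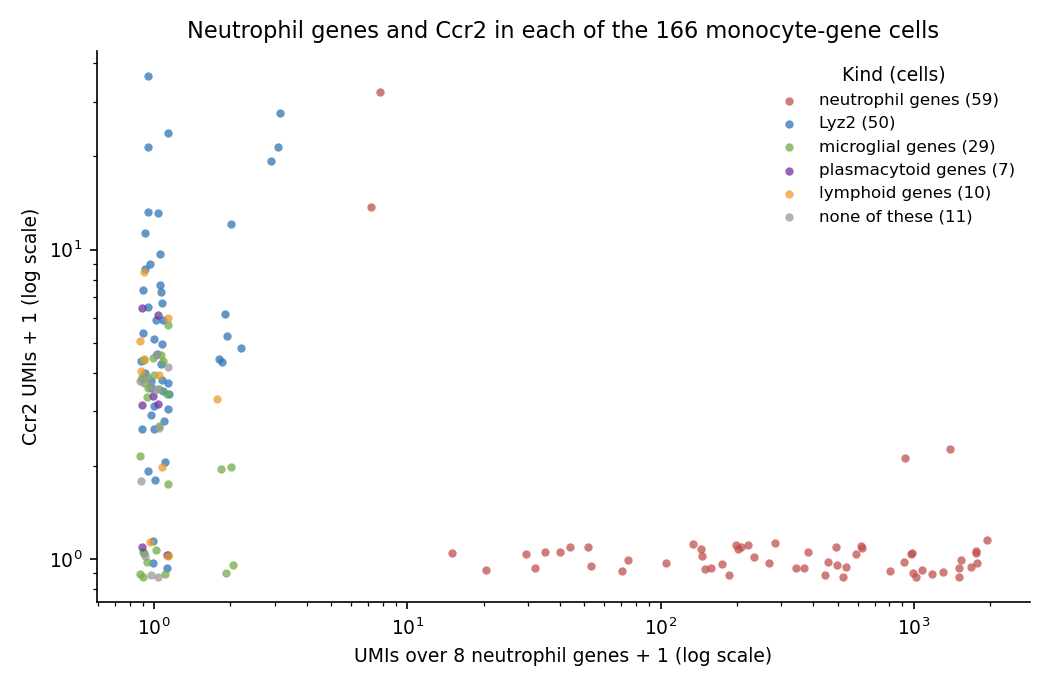
Each point is 1 monocyte-gene cell, placed by its UMIs over 8 neutrophil genes (horizontal, log scale, 1 added) and its Ccr2 UMIs (vertical, log scale, 1 added), with a small random shift to separate equal values, and coloured by kind. Of the 59 neutrophil-gene cells 55 lie along the bottom, where Ccr2 is 0, and the Lyz2 cells lie at the left with the at most 2 neutrophil UMIs that their definition allows.

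The Lyz2 cells also carried monocyte genes that the selection did not use. Of the 50, 47 held Plac8, and Fn1, which encodes fibronectin and is a gene of classical monocytes, was found in 34. Of the selecting genes, given as a description, Ccr2 was found in 47 of them, Ly6c2 in 30, Chil3 in 28 and Vcan in 12. Ngp and Retnlg, of which the definition allowed at most 2 UMIs, were found in 0 of 50. All 20 genes of a classical monocyte list, which includes Lyz2 itself, had a higher mean CPM in these cells than in all other cells, as they also did in the neutrophil-gene cells. All 20 were found in at least 25% of the Lyz2 cells and 15 in at least 25% of the neutrophil-gene cells. Of 12 genes of a nonclassical monocyte list, 11 had a higher mean CPM in the Lyz2 cells than in all other cells. In the Lyz2 cells 8 of these 12 were found in at least 25% of cells. In the neutrophil-gene cells 6 were higher and 5 were found that often. The genes standing highest above all other cells were Arhgef37, Gm9733, Fn1, Krt80, Plac8 and Gda, followed by Treml4, Gm50022, Gpr141, AI839979, Ear2, Sirpb1c, Kcne3, Plcb1 and Hp.

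Levels of monocyte genes in the Lyz2 cells are sums of 6 to 25 cells per library. With monomer, all Fn1 UMIs of the Lyz2 cells lay in cells that held 8, 14 and 29 of them. All Ly6c2 UMIs there lay in cells that held 26 and 6, and the other Lyz2 cells of monomer held neither gene. The Lyz2 cells were thus not all alike, and levels per library are also those of different mixtures. More than 1 hashtag was called in 8 of the 25 cells of PFF + VH and in 3 of the 6 of PFF + AZD1480. Ccr2, Ly6c2 and Chil3 were used to select the cells and the libraries differ in depth, so that their levels are a description. Ccr2 was at 1107 CPM with PBS (95% exact Poisson interval 887 to 1366), 1296 with monomer (1039 to 1596), 686 with PFF + VH (548 to 847) and 1212 with PFF + AZD1480 (937 to 1542). With matching barcodes counted once, PFF + VH was at 779 CPM (578 to 1028), which overlaps PBS and PFF + AZD1480. Ly6c2 was at 318, 471, 1714 and 514 CPM in the order PBS, monomer, PFF + VH and PFF + AZD1480, and Chil3 at 1553, 250, 2328 and 1744, with 1403 and 1902 CPM in PFF + VH when matching barcodes were counted once. Without cells of more than 1 hashtag, Ly6c2 was at 1870 CPM (1575 to 2204) in PFF + VH and 1107 (736 to 1600) in PFF + AZD1480, which overlap. Chil3 was then at 2634 and 395 CPM, since 82 of the 95 Chil3 UMIs in the Lyz2 cells of PFF + AZD1480 lay in 1 cell with more than 1 hashtag.

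Plac8, which the selection did not use, was at 3997 CPM in the Lyz2 cells with PBS, 1870 with monomer, 1483 with PFF + VH and 734 with PFF + AZD1480. In PBS a single Lyz2 cell held 135 Plac8 UMIs, and the next highest held 40. The PFF + AZD1480 value was 1384 CPM (964 to 1924) in the 3 cells left without those of more than 1 hashtag, against 1962 (1660 to 2304) in the 17 left in PFF + VH, and these intervals overlap. With matching barcodes counted once, PFF + VH was at 1450 CPM (1170 to 1776).

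Among other classical monocyte genes of the Lyz2 cells, Fn1 was at 1273 CPM with PBS, 751 with monomer, 1116 with PFF + VH and 2185 with PFF + AZD1480. Without cells of more than 1 hashtag, Fn1 was at 1199 CPM (965 to 1472) in PFF + VH and 1700 (1230 to 2290) in PFF + AZD1480, which overlap. Thbs1, which encodes the matrix protein thrombospondin 1, was at 484, 766, 367 and 2332 CPM, with the interval of PFF + AZD1480 (1944 to 2774) above the other libraries. It was at 312 CPM (190 to 481) in PFF + VH with matching barcodes counted once. Without cells of more than 1 hashtag, Thbs1 was at 369 CPM (245 to 533) in PFF + VH and 2056 (1535 to 2696) in PFF + AZD1480, so that the intervals still lie apart. All 6 Lyz2 cells of PFF + AZD1480 held a Thbs1 UMI, and 13 of 25 did in PFF + VH.

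Il1b, the gene of interleukin-1β, was at 1082, 883, 1315 and 4884 CPM in the same order. Without cells of more than 1 hashtag it was at 1304 CPM (1060 to 1587) in PFF + VH and 2095 (1569 to 2740) in PFF + AZD1480, and these intervals overlap. Treml4, a receptor gene of nonclassical monocytes, had 22 UMIs in the 9 Lyz2 cells of PBS and 17 in the 10 of monomer, but 1 in the 25 of PFF + VH and 0 in the 6 of PFF + AZD1480. In the 11 profiles of PFF + VH counted once it had 0. These Poisson intervals cover counting error within 1 library and not the spread between animals or between cells.

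**Figure D3:**
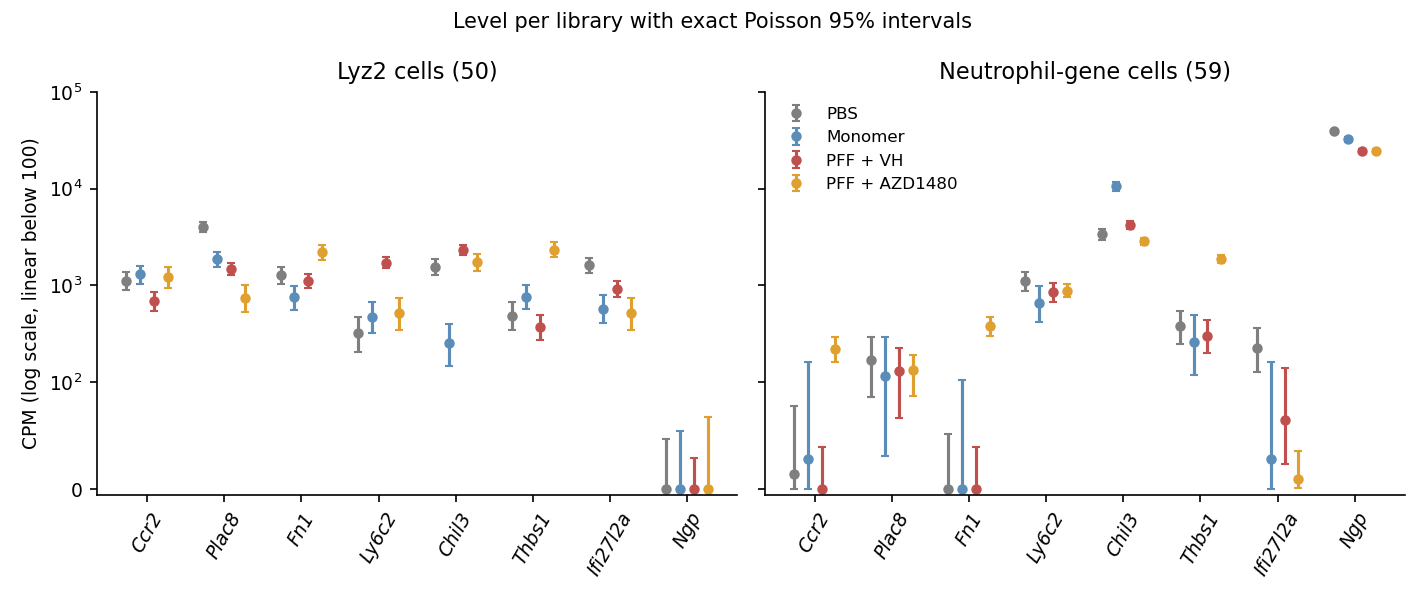
Points give the level (CPM, log scale that is linear below 100) of 8 genes in the summed Lyz2 cells (left) and neutrophil-gene cells (right) of each library, with exact Poisson 95% intervals. Ccr2, Plac8 and Fn1 are higher in the Lyz2 cells and Ngp is at 0 in them, while Thbs1 is highest in PFF + AZD1480 in both panels.

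The neutrophil-gene cells carried 2 of the 4 selecting genes and nearly lacked the others. Of the 59, 49 held Ly6c2 and 48 held Chil3, but 4 held Ccr2 and 3 held Vcan, and Plac8 was found in 25. The S100a8 and S100a9 genes, whose products form calprotectin, were at 84214.5 and 137691 CPM as the mean of the libraries, and S100a8 was found in 59 of 59 cells. Neutrophil list genes together made up 36.8% of their UMIs with PBS, 37.0% with monomer, 22.5% with PFF + VH and 27.8% with PFF + AZD1480. Microglial list genes made up 0.0445, 0.0486, 0.538 and 0.210% of their UMIs in the same order. Retnlg, a gene of mature neutrophils, was at 17288, 17564, 4708 and 21290 CPM, lowest in PFF + VH, where matching barcodes counted once gave 5069. Camp and Ngp, whose transcripts belong to neutrophil precursors, were at 35409 and 39384 CPM with PBS, 36787 and 32296 with monomer, 27278 and 24746 with PFF + VH and 22173 and 24798 with PFF + AZD1480. In 274 other cells of the series that carried neutrophil genes but did not meet the selection, Camp was at 345 CPM and Ngp at 509, while Retnlg was at 4214 and S100a9 at 26407. Cebpe, the gene of a transcription factor of granule formation, was found in 40.7% of the neutrophil-gene cells, at a mean of 302.5 CPM against 12.04 in those 274 cells. Neutrophil list genes made up only 4.86% of the UMIs of the 274 cells, as the mean of the libraries. Microglial list genes made up 0.819% there, and Mrc1, Pf4, Cd163 and Lyve1 together 0.278%. The 274 cells are thus a mixed class, and their CPM cannot be read as levels of neutrophils alone.

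Promoter sequences of Ngp and Ltf, 2 of the leading granule genes, chosen because they hold the motif searched, and of Ccr2, which the Lyz2 cells carried, are shown from RefSeq (GRCm38.p6, 250 bases before the start of the gene and 50 after it), with capitals marking matches to TTGCNNAA on either strand, a form of the sequence bound by C/EBP factors.
Ngp, chr9:110419558-110419857, plus strand: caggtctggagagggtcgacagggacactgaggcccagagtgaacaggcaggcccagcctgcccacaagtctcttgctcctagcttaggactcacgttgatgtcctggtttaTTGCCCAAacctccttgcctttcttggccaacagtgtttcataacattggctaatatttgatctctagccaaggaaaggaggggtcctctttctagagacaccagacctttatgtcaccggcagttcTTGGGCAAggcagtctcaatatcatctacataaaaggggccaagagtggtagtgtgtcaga
Ltf, chr9:111019042-111019341, plus strand: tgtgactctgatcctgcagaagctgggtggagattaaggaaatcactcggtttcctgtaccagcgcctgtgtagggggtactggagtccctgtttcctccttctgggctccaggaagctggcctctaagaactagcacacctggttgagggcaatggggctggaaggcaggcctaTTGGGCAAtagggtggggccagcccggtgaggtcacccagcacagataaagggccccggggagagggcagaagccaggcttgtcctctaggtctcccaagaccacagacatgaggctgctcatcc
Ccr2, chr9:124101933-124102232, plus strand: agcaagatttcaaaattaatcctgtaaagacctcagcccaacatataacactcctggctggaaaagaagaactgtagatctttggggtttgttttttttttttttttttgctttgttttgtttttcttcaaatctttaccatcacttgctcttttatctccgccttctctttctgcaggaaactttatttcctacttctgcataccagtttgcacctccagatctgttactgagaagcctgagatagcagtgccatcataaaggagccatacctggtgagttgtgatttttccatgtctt

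Ngp held 2 matches to TTGCNNAA and Ltf 1. Camp, which stood as high above all other cells as these, held none, and neither did Ccr2. Over 32851 RefSeq promoters of the same length, 10.8% held a match on either strand. Of the 15 leading genes of all monocyte-gene cells, 12 had a promoter in the table and 8 of these held one. Of the leading genes of the Lyz2 cells, 9 had a promoter and 3 held one, and 0 of the 4 selecting genes did. A second promoter listed for Plac8 also held a match and was not counted. The motif GAGGAA, the core bound by PU.1, was found in 7 of the 12, in 4 of the 9 and in 1 of the 4, against 28.3% of all promoters. A form of the STAT site, TTCNNNGAA, was found in 1 of the 12, in 2 of the 9 and in 1 of the 4, the promoter of Chil3, against 8.30% of all promoters. Such matches are letters in a window and not measured binding.

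The remaining kinds were smaller. Their cells held a median of 3 UMIs of the selecting genes in the microglial-gene cells, 4 in the lymphoid-gene cells and 13 in the plasmacytoid-gene cells, with a highest value of 28. Of 29 microglial-gene cells, 28 held P2ry12, the microglial ADP receptor, at 2121 CPM in their sum, while 19 held Ccr2 and 1 held Chil3. All 7 plasmacytoid-gene cells held Ly6c2 and 6 held Plac8, with 0 UMIs of Chil3 and of Vcan, and they were found as 0, 2, 1 and 4 cells in PBS, monomer, PFF + VH and PFF + AZD1480. Of 10 lymphoid-gene cells, 8 held Ccr2 and 1 held Lyz2. The 11 cells that met none of the limits had a median of 1842 UMIs, and 9 of them held Lyz2.

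Cells just inside and just outside the limit of 3 UMIs show how the selection fell. With exactly 3 UMIs of the selecting genes there were 6 cells with PBS, 15 with monomer, 20 with PFF + VH and 5 with PFF + AZD1480, and with 2 UMIs, just outside, there were 33, 41, 77 and 33. The cells with 2 UMIs had a median of 0, 1, 2 and 2 Lyz2 UMIs and of 21, 21, 5 and 15 microglial gene UMIs.

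The share of monocyte-gene cells per hashtag asks whether AZD1480 changed their number after PFF. At 1000 UMIs per cell, the 4 PFF + VH hashtags gave 0.171, 0.169, 0.176 and 0.158% of single-hashtag cells, and the 5 PFF + AZD1480 hashtags 0.171, 0.0409, 0.145, 0.171 and 0.483%. The groups overlap, and hashtag 05 of PFF + AZD1480 stands above all others with 6 of 1242 cells. The mean was 0.169% ± 0.00758 (SD, n = 4) in PFF + VH and 0.202% ± 0.166 (SD, n = 5) in PFF + AZD1480, a difference of 0.0336 percentage points (two-sided exact permutation test, p = 0.984). The smallest p that 5 against 4 can give is 0.0159. Without hashtag 05 of PFF + AZD1480 the difference was -0.0367 points (two-sided exact permutation test, p = 0.257). With unthinned cells the means were 0.236% ± 0.0623 (SD, n = 4) and 0.309% ± 0.267 (SD, n = 5; two-sided exact permutation test, p = 0.619), and with matching barcodes counted once the thinned difference was 0.0756 points (p = 0.540, same exact test). Every PFF + VH value rests on 6 to 8 thinned cells and every PFF + AZD1480 value on 1 to 6. Thinning also eases the limits on the other genes, so that 6 of the 28 thinned cells of PFF + VH and 6 of the 18 of PFF + AZD1480 had not been selected before it.

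Strict monocyte-gene cells were those with at most 1 UMI over the neutrophil genes, at most 1 over B and plasma cell genes, at most 1 over plasmacytoid genes and at most 2 over P2ry12, Tmem119 and Sall1. There were 11 with PBS, 15 with monomer, 25 with PFF + VH and 7 with PFF + AZD1480. Not all of them were Lyz2 cells, since of the 25 in PFF + VH 16 were Lyz2 cells, 4 lymphoid-gene cells and 5 of none of the kinds, and of the 7 in PFF + AZD1480 6 and 1 were Lyz2 and lymphoid-gene cells. The 2 neutrophil-gene cells of PFF + AZD1480 that looked like Lyz2 cells were not among the 7, since they held 6 neutrophil UMIs each. At 1000 UMIs the PFF + VH hashtags gave 0.0979, 0.169, 0.101 and 0.119%, and the PFF + AZD1480 hashtags 0.0854, 0, 0, 0.0342 and 0%, so that the groups do not overlap. The mean was 0.122% ± 0.0328 (SD, n = 4) in PFF + VH and 0.0239% ± 0.0374 (SD, n = 5) in PFF + AZD1480, a difference of -0.0976 points (two-sided exact permutation test, p = 0.0159, the smallest it can give).

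These values rest on 20 thinned cells of PFF + VH and 3 of PFF + AZD1480. Of the 20, 11 were Lyz2 cells and 5 had not been selected before thinning, and the 3 were 1 Lyz2 cell, 1 neutrophil-gene cell and 1 that had not been selected before it. Hashtag 01 of PFF + VH held 4 strict cells and no Lyz2 cell among them. Unthinned, the difference was -0.0866 points (p = 0.0635), with matching barcodes counted once it was -0.0555 points (p = 0.0635), and with both it was -0.0395 points (p = 0.143), all by the same exact permutation test.

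**Figure D4:**
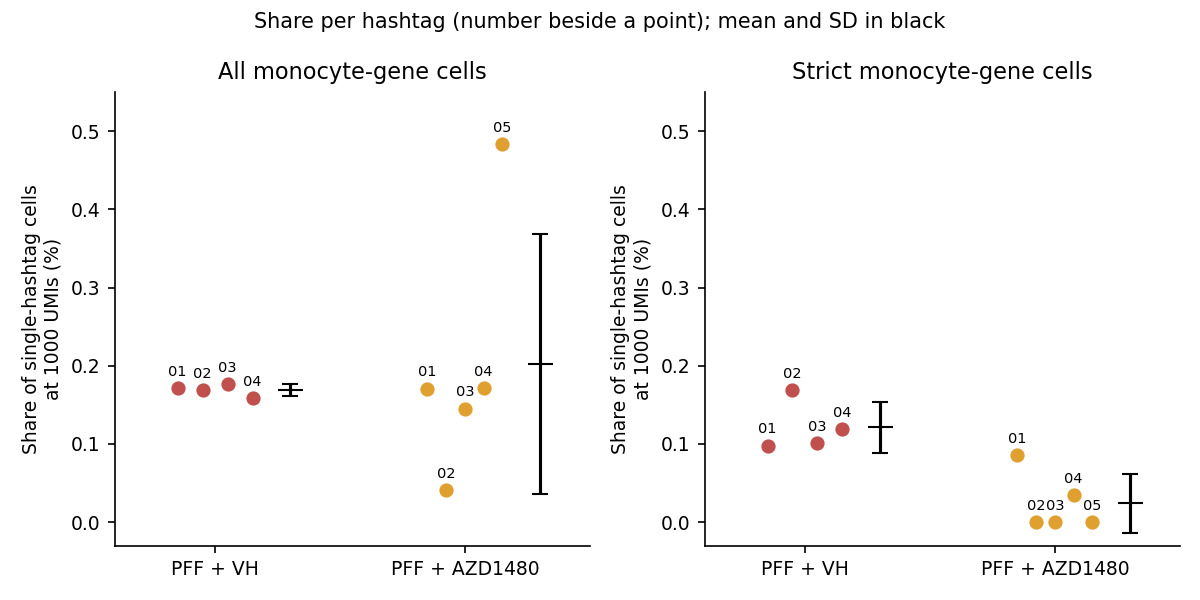
Each point is 1 hashtag, and its height the share (%) of single-hashtag cells, thinned to 1000 UMIs, that were monocyte-gene cells (left) or strict monocyte-gene cells (right), with mean and SD beside the points. The groups overlap on the left, with hashtag 05 of PFF + AZD1480 at 0.483%, and do not overlap on the right, where 3 hashtags of PFF + AZD1480 are at 0.

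By kind, the hashtags of 1 library differed widely. Of single-hashtag cells, neutrophil-gene cells made up 0.111, 0, 0.141 and 0.0186% in the PFF + VH hashtags and 0.0422, 0.0805, 0.0713, 0.304 and 0.601% in the PFF + AZD1480 hashtags, from 0 to 9 cells each. Lyz2 cells made up 0.0222, 0.212, 0.0236 and 0.112% in PFF + VH and 0.0422, 0, 0, 0.0675 and 0% in PFF + AZD1480, from 0 to 8 cells each. Hashtag 02 of PFF + VH thus held 8 Lyz2 barcodes and 0 neutrophil-gene cells, and hashtag 05 of PFF + AZD1480 held 0 and 8. With matching barcodes counted once, the 8 Lyz2 barcodes of hashtag 02 were 3 profiles and the 6 of hashtag 04 were 3. No match was called among the neutrophil-gene cells within any of these hashtags, but shallow pairs with too few genes could not be compared. The 2 neutrophil-gene cells of PFF + AZD1480 that looked like Lyz2 cells lay in hashtags 01 and 04. They are counted as neutrophil-gene cells in these shares, so that the Lyz2 shares of these 2 hashtags would be higher with them moved. These values were not tested, as the kinds were set after the data had been seen.

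Gene levels after AZD1480 were compared in the summed counts of the hashtags with at least 5 monocyte-gene cells. These were the 4 hashtags of PFF + VH, with 9 to 12 cells, and hashtags 04 and 05 of PFF + AZD1480, with 15 and 9 cells. Of the cells summed, 12 of 41 in PFF + VH and 17 of 24 in PFF + AZD1480 were neutrophil-gene cells, and 16 of 41 and 2 of 24 were Lyz2 cells, so that a difference between the sums is also one between mixtures, and the 2 cannot be told apart. The neutrophil-gene cells summed in hashtag 04 of PFF + AZD1480 include a cell with 6 neutrophil UMIs that looked like a Lyz2 cell. Of 1006 genes tested, 3 (0.298%) passed an adjusted p of 0.05 (quasi-likelihood test of edgeR, adjusted after Benjamini and Hochberg), 2 higher (0.199%) and 1 lower (0.0994%), and 205 had an unadjusted p under 0.05. The CPM of the hashtags did not overlap between the groups for 29.2% of all genes tested.

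Ifi27l2a, an interferon-induced gene, fell. Its level was 593, 975.4, 579 and 884 CPM in the 4 PFF + VH hashtags and 32.3 and 0 CPM in hashtags 04 and 05 of PFF + AZD1480. The groups do not overlap, and the log2 fold change was -5.01 ± 0.71 (SE; edgeR adjusted p = 0.0280). Of the 151 UMIs of this gene in the monocyte-gene cells of PFF + VH, 115 came from the Lyz2 cells. The Lyz2 cells of the libraries held it at 1604 CPM with PBS, 574 with monomer, 917 with PFF + VH and 514 with PFF + AZD1480. Without cells of more than 1 hashtag, the Lyz2 cells held it at 1449 CPM in PFF + VH and 870 in PFF + AZD1480, where 18 of 22 UMIs lay in 1 cell of hashtag 01, which the sums do not hold. In the hashtags that entered the sums, 16 Lyz2 cells of PFF + VH held it at 1511 CPM (1242 to 1821) and 2 of PFF + AZD1480 at 269 CPM (73.2 to 688), from 4 UMIs. In microglia of the same hashtags the mean was 170 CPM in PFF + VH and 36.2 in PFF + AZD1480.

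Thbs1 rose. It was at 140, 86.7, 193 and 442 CPM in the PFF + VH hashtags and at 1831 and 1604 CPM in hashtags 04 and 05 of PFF + AZD1480. The groups do not overlap, with a log2 fold change of 3.31 ± 0.53 (SE; edgeR adjusted p = 0.0360). The gene was higher with PFF + AZD1480 in both main kinds, since the neutrophil-gene cells held it at 375 CPM with PBS, 257.5 with monomer, 302 with PFF + VH and 1868.5 with PFF + AZD1480, where 18 of 23 cells had a UMI. Without the 2 cells that held under 10 neutrophil UMIs, this last value was 2094.7 CPM. In the Lyz2 cells of the whole libraries the values were those given above. In the hashtags that entered the sums, 16 Lyz2 cells of PFF + VH held Thbs1 at 385 CPM (256 to 556). The 2 Lyz2 cells of PFF + AZD1480 there held it at 1209 CPM (717 to 1911), from 18 UMIs. A further 34 UMIs lay in 1 Lyz2 cell of hashtag 01, which the sums do not hold.

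Grm8, which encodes a metabotropic glutamate receptor, was higher in the sums of PFF + AZD1480. It was at 339 and 422 CPM in the PFF + AZD1480 hashtags, from 42 and 41 UMIs, and at 0 in all 4 hashtags of PFF + VH. Against a floor of 3 counts over the PFF + VH hashtags it was at least 21.0-fold higher (edgeR adjusted p = 0.0360). All 84 UMIs of this gene in the monocyte-gene cells of PFF + AZD1480 lay in the 4 plasmacytoid-gene cells, and 41 of them in 1 cell. Plasmacytoid-gene cells numbered 0 in each of the 4 PFF + VH hashtags and 2 and 1 in hashtags 04 and 05 of PFF + AZD1480. A change of level within such cells therefore cannot be told apart from their presence in the sums. With monomer, 8 of the 9 Grm8 UMIs of monocyte-gene cells lay in plasmacytoid-gene cells.

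The number of calls changed with the hashtags that entered. Without hashtag 01 of PFF + VH 0 of 952 genes passed in edgeR, with 153 at an unadjusted p under 0.05, without its hashtag 03 46 genes did, and without hashtag 04 of PFF + AZD1480, which leaves 1 sample in that group, 72 did. With 1 barcode per matching profile 2 genes passed, Ifi27l2a at a log2 fold change of -4.44 (edgeR adjusted p = 0.0362) and Thbs1 at 3.69 (edgeR adjusted p = 0.0116), while Grm8 did not (edgeR adjusted p = 0.05915). Thbs1 kept its direction in all alternatives and stayed past the threshold in 10 of 14 of them, as did Grm8, and Ifi27l2a in 12 of 14.

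**Figure D5:**
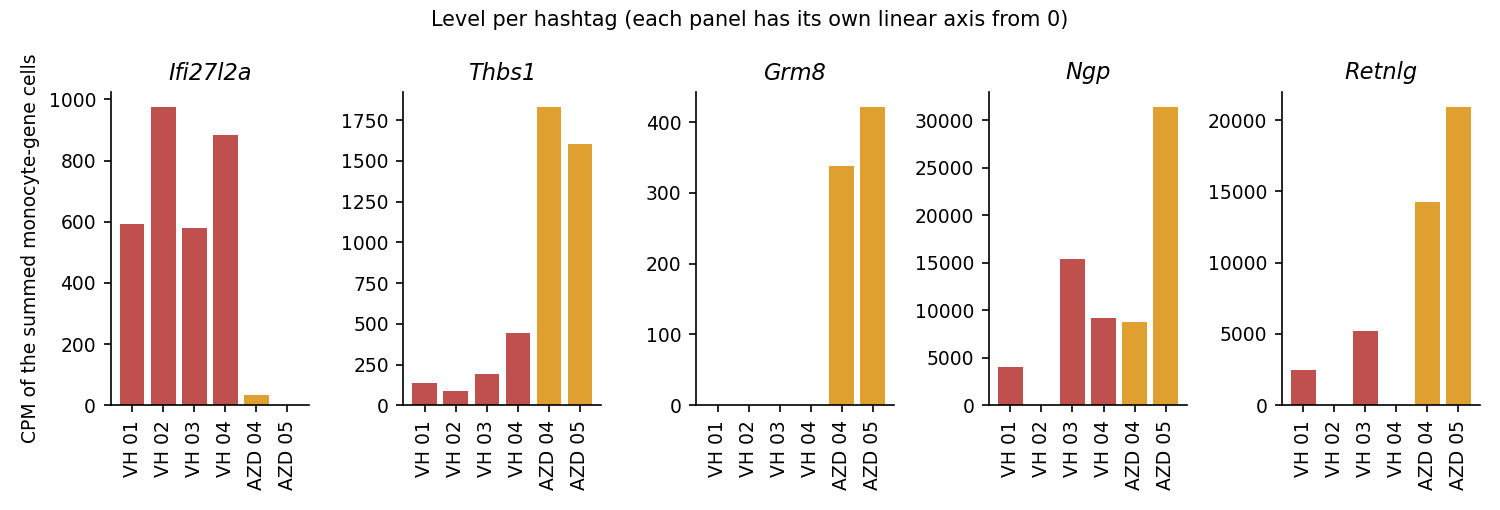
Bars give the level (CPM, linear axes from 0) of 5 genes in the summed monocyte-gene cells of the 4 PFF + VH hashtags and of hashtags 04 and 05 of PFF + AZD1480. Ifi27l2a is lower and Thbs1 and Grm8 higher in PFF + AZD1480 without overlap, whereas the bars of Ngp overlap, with hashtag 02 of PFF + VH at 21.7 CPM and hashtag 05 of PFF + AZD1480 at 31387 CPM.

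The neutrophil genes varied widely between the hashtags of 1 library. All 11 genes of the neutrophil list were tested and all 11 had a log2 fold change above 0, with a median of 2.21 against -0.069 over all genes tested, but 0 passed the threshold. Ngp was at 4047, 21.7, 15398 and 9163 CPM in the PFF + VH hashtags and at 8736 and 31387 in the PFF + AZD1480 hashtags, and these overlap. S100a9 was at 33910, 0, 63379 and 20757 CPM against 63655 and 145857. The list took 7.20, 0.0238, 14.8 and 5.62% of the UMIs in the PFF + VH hashtags and 14.1 and 33.2% in the others, beside 5, 0, 6 and 1 neutrophil-gene cells against 9 and 8. The microglial list went the other way, with 7 of its 10 genes tested, a median of -1.18 and 0 passing.

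Of 20 classical monocyte genes, 19 were tested, with a median log2 fold change of 0.74, and Thbs1 alone passed. Plac8 was at 593, 1192, 1062 and 944 CPM in the PFF + VH hashtags and at 452 and 278 in the PFF + AZD1480 hashtags, which do not overlap, with a log2 fold change of -1.05 ± 0.40 (SE; edgeR adjusted p = 0.200). Lyz2 was at 6035, 16431, 15254 and 14086 CPM against 12552 and 16053, which overlap. Of 15 genes of macrophage maturation 9 were tested, with a median of -1.63 and 0 passing, and Apoe, which carries lipids, was at 1116, 3165, 2703 and 1507 CPM against 895 and 216.

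Genes of the pathway that AZD1480 inhibits were sparse in these cells. Few JAK and STAT genes had counts enough to be tested, and 0 passed. Jak1 was at 488, 499, 338 and 342 CPM in the PFF + VH hashtags and at 347 and 257 in the PFF + AZD1480 hashtags (log2 fold change -0.10 ± 0.39, SE), and Stat3 at 454, 217, 314 and 241 against 274 and 144 (-0.21 ± 0.48). Both overlap between the groups. Over the monocyte-gene cells of PBS, monomer, PFF + VH and PFF + AZD1480, Jak2 had 10, 27, 18 and 24 UMIs, Jak3 5, 1, 2 and 0, Tyk2 6, 6, 5 and 16, Stat2 11, 5, 6 and 9, Stat4 13, 13, 18 and 37, Stat5a 7, 3, 5 and 0, Stat5b 23, 27, 19 and 22, and Stat6 12, 16, 20 and 18. These genes did not reach the count filter of that comparison.

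Of 10 feedback and target genes of JAK/STAT signaling, 2 were tested and 0 passed. Pim1, which encodes a kinase induced by STATs, was at 174, 607, 314 and 161 CPM in the PFF + VH hashtags against 363 and 134, and Junb at 1989, 2645, 2293 and 965 against 1952 and 607. Socs3, the feedback inhibitor of IL-6 type signals, had 5, 9, 11 and 3 UMIs in the PFF + VH hashtags and 7 and 4 in the others, too few for the filter. Socs1 had 2, 1, 6 and 2 UMIs over all monocyte-gene cells of the 4 libraries and Irf1 14, 23, 53 and 25. Of 17 receptor genes 6 were tested, with a median of 0.13, and of 35 interferon-stimulated genes 5, with a median of -1.28, and among these Ifi27l2a alone passed. Ly6e was at 872, 1214, 700 and 964 CPM against 621 and 175, which do not overlap, with a log2 fold change of -0.95 ± 0.45 (SE; edgeR adjusted p = 0.254). Of 22 inflammatory genes 12 were tested, with a median of -0.94 and 0 passing, and Il1b was at 140, 672, 2776 and 663 CPM against 1984 and 730.

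Because each condition is 1 library, the AZD1480 effect in these cells was also set against that in microglia of the same hashtags. A shift shared by all cells of a library then drops out. The different mixtures of kinds in the sums, given above, do not drop out. A difference found here can therefore not be told apart from one between mixtures. The test of the difference between the 2 effects covered 12009 genes, of which 83 (0.691%) passed an edgeR adjusted p of 0.05, 73 (0.608%) with a higher and 10 (0.0833%) with a lower effect in monocyte-gene cells. Of the 83, 62 had hashtag CPM that do not overlap between the groups, as 11.8% of all genes tested did. The count was 46 without hashtag 01 of PFF + VH, 39 without its hashtag 02 and 11 without hashtag 05 of PFF + AZD1480. The last leaves hashtag 04 alone in its group, so that this lone sample is assumed to vary like the others. With 1 barcode per matching profile it was 120.

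Retnlg had a difference of 4.93 ± 0.75 on the log2 scale (SE; edgeR adjusted p = 1.19e-07). It was at 2442, 0, 5213 and 20.1 CPM in the monocyte-gene cells of PFF + VH and at 14278 and 20928 in those of PFF + AZD1480, without overlap. All 4364 Retnlg UMIs in the monocyte-gene cells of PFF + AZD1480 lay in neutrophil-gene cells, a kind that Retnlg itself helps to define. Of the neutrophil list, 4 of 11 genes passed, all with a higher effect, namely Retnlg, S100a9, Ngp and Ltf. Retnlg stayed past the threshold in 13 of 14 alternatives, but S100a9, Ngp and Ltf each in 6 of 14, with a difference of 0.24 to 4.05 for Ngp. S100a9 lay at 44.4 and 46.8 CPM in the microglia of the 2 groups. Olfm4, a gene of neutrophil granules, was at 194 and 1841 CPM in hashtags 04 and 05 of PFF + AZD1480 and at 0 in the PFF + VH hashtags, so that most of it lay in hashtag 05. Of the classical monocyte list 6 of 20 passed, and among them Thbs1 had a difference of 3.07 ± 0.57 (SE; edgeR adjusted p = 9.19e-05). Most UMIs of these genes in the monocyte-gene cells of PFF + AZD1480 lay in neutrophil-gene cells. These were 383 of 510 for Thbs1, 150 of 158 for Mcemp1, 149 of 157 for Mgst1, 133 of 157 for Gda and 89 of 108 for Clec4e. The sixth, S100a6, is given below. In the monocyte-gene cells, the hashtags of the 2 groups overlapped for Gda, Clec4e and Mgst1, but not for Thbs1, Mcemp1 and S100a6. Microglia held Gda, Clec4e and Mgst1 near 0, at a mean of 1.19, 0.874 and 0.688 CPM in PFF + VH. In PFF + AZD1480 they held them at 0.116, 0.215 and 0.186 CPM, and the differences of these genes include this fall at very low levels.

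S100a6, a calcium-binding protein gene, was at 384, 1409, 2027 and 1547 CPM in PFF + VH and at 3340 and 3044 in PFF + AZD1480 (difference 2.75 ± 0.58, SE; edgeR adjusted p = 0.00140). Of its 933 UMIs in the monocyte-gene cells of PFF + AZD1480, 780 lay in neutrophil-gene cells and 129 in Lyz2 cells. Ccr1, a chemokine receptor gene of myeloid cells, was at 209, 43.4, 72.4 and 20.1 CPM against 153 and 195, which overlap, while microglia held it at a mean of 29.9 CPM in PFF + VH and 2.83 in PFF + AZD1480 (difference 5.50 ± 0.75, SE; edgeR adjusted p = 5.84e-10). Cybb, the catalytic subunit of the phagocyte NADPH oxidase, was at 279, 737, 1134 and 985 CPM against 1073 and 1553, also with overlap, at a difference of 2.49 ± 0.53 (SE; edgeR adjusted p = 0.00140).

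Of 6 plasmacytoid genes tested, 4 passed with a higher effect. Runx2, Tcf4, Bst2 and Cox6a2 are all high in plasmacytoid dendritic cells, which produce type I interferon. Bst2, also an interferon-stimulated gene, was at 488, 390, 72.4 and 40.2 CPM in PFF + VH and at 710 and 648 in PFF + AZD1480 (difference 2.89 ± 0.55, SE; edgeR adjusted p = 0.000177). Of its 188 UMIs in the monocyte-gene cells of PFF + AZD1480, 177 lay in the 4 plasmacytoid-gene cells. Of 33 interferon-stimulated genes tested, Bst2 was the single one that passed, while the median difference of the list was -1.19, with 9 of 33 above 0, against a median of 0.10 over all genes tested.

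Genes with a lower effect included several that microglia carry at higher levels. Nav3, a neuron navigator gene, was at 1012, 564, 555 and 442 CPM in the monocyte-gene cells of PFF + VH and at 121 and 20.6 in those of PFF + AZD1480, while microglia held it at a mean of 1749 and 2057 CPM. Of the 222 Nav3 UMIs in the monocyte-gene cells of PFF + VH, 103 lay in the 13 microglial-gene cells. Agmo, an ether lipid oxidase gene, and Gem, a small GTPase gene, had differences of -3.04 ± 0.72 and -4.43 ± 0.91 (SE; edgeR adjusted p = 0.00878 and 0.000954). In the monocyte-gene cells of PFF + VH, 48 of 85 Agmo UMIs lay in microglial-gene cells. For Gem only 23 of 98 did, and 52 lay in neutrophil-gene cells, against 1 of 14 in PFF + AZD1480. Herc6, an interferon-induced gene, was at 209, 86.7, 290 and 20.1 CPM in PFF + VH and at 0 in both hashtags of PFF + AZD1480, at least 11.2-fold lower against the floor of 3 counts, and the adjusted p of its difference from microglia was 0.0123 in edgeR.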

How the data were processed

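Midbrain CD45+ cells of 4 conditions were measured by 10x 3' v3.1 single-cell RNA-seq. The deposited values are raw UMI counts per gene and cell, made with Cell Ranger (release 7.0.1 per the file headers) on mm10, with 1 mRNA library per condition. Hashtag counts of the 2 PFF libraries were deposited in the same matrices. Cells with 500 to 15000 UMIs, 250 to 5000 genes and at most 10% mitochondrial UMIs were kept. Hashtags were called with HTODemux in Seurat 5.3.0. The members and the gene lists were chosen with earlier results of these data known.

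Barcodes of a library were called matching when the dispersion index of their counts was at most 1.2 over at least 100 genes with an expected count of at least 2. Shares per hashtag were compared by two-sided exact permutation tests after thinning to 1000 UMIs. UMI counts summed per hashtag with at least 5 cells were compared in edgeR 4.0.16 (R 4.3.3; quasi-likelihood test, TMM, filterByExpr, Benjamini-Hochberg, threshold 0.05), the interaction with hashtag as a block. Microglia were cells with 3 or more UMIs over P2ry12, Tmem119 and Sall1 and at most 1 over the selecting genes. Standard errors are on the log2 scale. CPM of 1 library carry exact Poisson 95% intervals. Alternatives were MULTIseqDemux, hashtag values centred within cells, other members, depths and denominators, DESeq2 1.42.0, RLE, no count filter, and leaving out hashtags. Named genes were the selecting genes and Plac8, the 15 leading genes, up to 5 called genes per direction without overlap, the highest and all called genes of each list, and JAK and STAT genes with Socs1, Socs3, Pim1 and Irf1. Genes of the 2 main kinds were also named, chosen after their values were seen. The scripts were tested on simulated data. Genes used for selection stayed in the fits and are not given as test results. Some results are not reported here.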

Additional observations from a re-analysis of the deposited data

Results flagged for a closer look

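The AZD1480 effect differed between monocyte-gene cells and microglia, by the edgeR test of the difference itself, for the genes that follow. Values are differences on the log2 scale, positive where the effect was higher in monocyte-gene cells, and no explanation was tested. Of these 28 genes, 10 lost the call in at least 50% of the alternatives in which they were tested. These were Mgst1 (kept in 4 of 14), Clec4e (5 of 14), S100a9, Ngp, Ltf and Clec4d (6 of 14 each), Pglyrp1 and AW112010 (7 of 14 each), and Oscp1 and Siglece (5 of 13 each).

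Among genes of neutrophils and monocytes, the difference was 4.93 for Retnlg, 3.14 for S100a9, 2.59 for Ngp, 2.50 for Ltf, 3.07 for Thbs1, 2.75 for S100a6, 2.96 for Mcemp1, 2.96 for Mgst1, 3.47 for Gda, 3.21 for Clec4e and 2.28 for Pglyrp1. For Clec4d, a lectin receptor gene, it was 3.56, for Cybb 2.49 and for Ccr1 5.50. Among plasmacytoid genes it was 5.54 for Cox6a2, 3.99 for Runx2, 2.89 for Bst2 and 2.30 for Tcf4.

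A further 5 genes had 0 UMIs in the monocyte-gene cells of all PFF + VH hashtags tested, so that their fitted differences depend on the prior count and are no bound. These were 17.48 for Stfa2l1, 15.88 for Olfm4, 14.20 for Grm8, 12.35 for Oscp1 and 12.07 for Siglece. In hashtags 04 and 05 of PFF + AZD1480, Stfa2l1 was at 56.5 and 319 CPM, Siglece at 24.2 and 113 and Oscp1 at 80.7 and 103, so that Stfa2l1 and Siglece lay mostly in hashtag 05.

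Lower effects were found for Nav3 (-2.90), Agmo (-3.04) and Gem (-4.43). Herc6 (-12.19) and AW112010 (-12.00) had 0 UMIs in the PFF + AZD1480 hashtags, and AW112010 was at least 16.5-fold lower there against a floor of 3 counts over those hashtags.

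In PFF + VH, hashtag 02 held Cox6a2 at 43.35 CPM, from 2 UMIs, and the other hashtags at 0. It was the 1 such case among 37 groups of hashtags examined for a sample far from the others. Chance gives about 1 in 20. With all other hashtags at 0, the rule flags any value above 0, so that nothing is read from this case.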

How the results depend on the processing

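The difference in share (0.0336 points) turned negative with MULTIseqDemux (-0.0618), with hashtag values centred within cells (-0.00439), and for strict cells (-0.0976; -0.0555 with matching barcodes once, -0.0866 unthinned, -0.0395 with both). It was 0.144 with cells thinned to 2000 UMIs (exact permutation p = 0.413) and 0.00745 with at least 5 UMIs of the selecting genes. Leaving out 1 hashtag gave -0.0367 (without PFF + AZD1480 replicate 5) to 0.0739. With the hashtag number as a replicate block (01 to 04, exact sign-flip permutation test), it was -0.0367 (p = 0.375) and for strict cells -0.0916 (p = 0.125, the smallest possible), and nothing in the labels pairs the numbers. Counting matching barcodes once, strict unthinned cells and the block were added after seeing the data.

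The gene comparison called 3 genes. It called 0 of 1667 in edgeR with MULTIseqDemux (304 at an unadjusted p under 0.05), 14 with values centred within cells, 11 with at least 5 UMIs of the selecting genes, 13 in DESeq2 and 179 without a count filter, and 0 to 72 leaving out 1 hashtag. The comparison with microglia called 83 genes, 127 with values centred within cells, 31 with at least 5 UMIs of the selecting genes and 2 against border macrophages, where Clec4e reversed (-0.332), and 11 to 94 leaving out 1 hashtag. RLE scaling called 66 higher and 19 lower, against 73 and 10, and moved the median log2 difference from 0.102 to -0.0075. The cause of these changes was not tested.

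Strict cells gave no gene test, since 2 hashtags of PFF + VH and 0 of PFF + AZD1480 held 5. Leaving out doublets was not run, because Scrublet called 0 of 77105 cells and so did not work. No paired analysis was possible because, in the gene tests, the hashtags of the 2 groups share only number 04.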

Other observations

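Genes of cell division, a list of 10, took 0.136% of the UMIs of neutrophil-gene cells with PBS, 0.501% with monomer, 0.221% with PFF + VH and 0.120% with PFF + AZD1480, against a mean of 0.0230% in microglia. In Lyz2 cells the same list took 0.0395, 0.0324, 0.260 and 0.0386%. In PFF + VH, 171 of its 326 UMIs lay in 1 profile of 3 matching barcodes, and with matching barcodes counted once the share was 0.170%.

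Neutrophil list genes took 0.0255% of the UMIs of Lyz2 cells with PBS, 0.0103% with monomer, 0.172% with PFF + VH and 0.0257% with PFF + AZD1480, against 0.0425% in microglia. In PFF + VH, 198 of the 216 UMIs lay in 1 profile of 3 matching barcodes, and without cells of more than 1 hashtag the share was 0.0198%. The microglial gene P2ry12 was found in 23 of 50 Lyz2 cells and in 30 of 59 neutrophil-gene cells. Summed over all libraries it was at 184 and 294 CPM, and free RNA as its source was not tested. The libraries differed, since the microglial list took 0.0484, 0.0663, 0.374 and 0.132% of the UMIs of Lyz2 cells with PBS, monomer, PFF + VH and PFF + AZD1480.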
